A study of Homo sapiens with 16 samples.

Results

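In DMSO-treated Toledo cells, H3K27ac was set against H3K4me3 at the start sites of protein-coding genes, using the 2 peak lists of each mark. These are 4 of the 16 samples of a chromatin immunoprecipitation sequencing (ChIP-seq) study of Toledo, an established human diffuse large B-cell lymphoma line. Cells were kept for 6 days in DMSO, the solvent control, or in TP-064, which inhibits CARM1, an enzyme that methylates arginine, at 5 uM, and H3K27ac, H3K4me1 and H3K4me3 were mapped in 2 libraries per treatment, with 4 inputs. The DMSO libraries carry lane 3 in their labels and the inhibitor libraries lane 4, so treatment and lane cannot be told apart; the inhibitor and H3K4me1 lists serve here only as readouts that did not place a gene in a class. Nothing in the labels tells if the 2 libraries of a group are separate cultures, and their spread may be technical. The 714 protein-coding genes of chromosome 8 had no listed start site and enter no count of genes except those with both gene ends. Peaks on chromosome 8 stay in the counts of peaks.

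H3K4me3 is laid down by SET1 and MLL methyltransferase complexes around the start sites of active or poised genes, above all at promoters rich in CpG dinucleotides. H3K27ac is laid down mainly by the acetyltransferases CREBBP and EP300 and marks active promoters as well as active enhancers. H3K4me1 is the methylation state typical of enhancers and of the flanks of promoters.

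A mark was counted at a gene in a list when a peak covered at least 1 bp within 2 kb of any of its listed start sites. Listed starts were at hand for 15811 of 19970 protein-coding genes on chromosomes 1 to 22 and X. Both marks stood in all 4 lists at 1875 genes (11.9% of 15811). H3K4me3 stood alone, in both of its lists and in neither H3K27ac list, at 5091 genes (32.2%). H3K27ac stood alone at 24 genes (0.152%). Neither mark was listed at 6437 genes (40.7%), of which 633 lie in stretches of at least 2 Mb that hold no peak in any of the 12 ChIP lists. The replicates of a mark differed at the other 2384 genes (15.1%). These classes are what the rule sorts by and carry no test.

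Promoter sequences from each class are shown because their CpG content differed visibly between H3K27ac alone and most H3K4me3 promoters. Each is the 250 bases before a listed start, 5′ to 3′ on the gene's strand, from RefSeq on GRCh38.p14, with CG dinucleotides in capitals. With both marks, PAX5, the B-cell commitment factor (chr9:37034269-37034518, minus strand), held 27 CG dinucleotides, and RUBCNL, an autophagy regulator (chr13:46390043-46390292, minus strand), held 2. With H3K4me3 alone, HSPD1, the mitochondrial chaperonin (chr2:197500275-197500524, minus strand), held 25, and NR3C2, the mineralocorticoid receptor (chr4:148445323-148445572, minus strand), held 40. With H3K27ac alone, FCMR, the Fc receptor for IgM (chr1:206923197-206923446, minus strand), held 4, and MS4A7, a relative of CD20 (chr11:60378282-60378531, plus strand), held 1. RUBCNL shows that a promoter with both marks can also be poor in CG. FCMR and MS4A7 are poorer in CG than most of their class. Their observed over expected CpG ratios around the start were 0.187 and 0.173, against a class median of 0.320. In the same class ZPBP2, TRPM2, ARSG and WDR86 had ratios of 1.22, 0.944, 0.823 and 0.667.
PAX5: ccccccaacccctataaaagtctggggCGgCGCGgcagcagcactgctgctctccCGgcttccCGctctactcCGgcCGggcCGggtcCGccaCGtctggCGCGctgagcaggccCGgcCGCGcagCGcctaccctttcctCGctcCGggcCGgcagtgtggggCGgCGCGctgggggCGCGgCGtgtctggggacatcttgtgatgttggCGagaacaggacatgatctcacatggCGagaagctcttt
RUBCNL: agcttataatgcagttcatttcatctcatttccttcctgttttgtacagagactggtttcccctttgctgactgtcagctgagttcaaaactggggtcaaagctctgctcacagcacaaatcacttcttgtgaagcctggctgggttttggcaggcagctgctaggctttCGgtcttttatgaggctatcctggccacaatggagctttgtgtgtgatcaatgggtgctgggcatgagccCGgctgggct
HSPD1: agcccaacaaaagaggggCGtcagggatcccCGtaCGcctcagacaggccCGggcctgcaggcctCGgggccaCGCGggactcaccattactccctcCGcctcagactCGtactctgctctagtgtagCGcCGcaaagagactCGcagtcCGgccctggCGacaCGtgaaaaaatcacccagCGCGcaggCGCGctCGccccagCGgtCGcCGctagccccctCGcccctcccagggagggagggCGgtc
NR3C2: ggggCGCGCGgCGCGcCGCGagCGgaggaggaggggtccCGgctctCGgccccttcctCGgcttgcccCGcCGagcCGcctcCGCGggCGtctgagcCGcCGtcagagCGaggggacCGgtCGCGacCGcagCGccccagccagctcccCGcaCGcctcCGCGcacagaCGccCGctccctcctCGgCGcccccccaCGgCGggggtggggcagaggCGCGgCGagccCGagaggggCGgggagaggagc
FCMR: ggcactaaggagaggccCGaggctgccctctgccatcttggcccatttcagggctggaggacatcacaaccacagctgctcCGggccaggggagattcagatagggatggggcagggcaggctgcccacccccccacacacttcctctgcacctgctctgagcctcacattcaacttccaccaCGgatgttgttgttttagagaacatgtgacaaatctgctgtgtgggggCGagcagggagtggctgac
MS4A7: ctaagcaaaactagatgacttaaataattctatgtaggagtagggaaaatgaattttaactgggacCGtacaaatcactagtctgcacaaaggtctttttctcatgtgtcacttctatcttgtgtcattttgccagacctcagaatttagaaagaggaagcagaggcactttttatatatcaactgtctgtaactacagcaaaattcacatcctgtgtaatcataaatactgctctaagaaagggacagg

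H3K27ac at promoters was nested within H3K4me3, which stood in both lists at 57.3% of all genes. Of the 1904 genes with H3K27ac in both lists, 98.7% had H3K4me3 in its first list and 98.5% in its second (98.6 ± 0.111%, SD, n = 2 lists), and 1.26% had it in neither. Of the 9063 genes with H3K4me3 in both lists, 42.9% had H3K27ac in its first list and 21.6% in its second (32.3 ± 15.0%, SD, n = 2 lists). Both shares come from the lists that form the classes, and the sizes of the sets, 1904 and 9063 genes, set their order, so they are given as a description. Among these 9063 genes, H3K27ac stood in both lists at 20.7%, in 1 list at 23.1% and in neither at 56.2%. The nesting was less complete with the 4016 widest peaks of each list, where H3K4me3 was found at 87.9% of H3K27ac genes.

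The H3K27ac lists differed in length, with 7885 and 4016 peaks, while the H3K4me3 lists held 12476 and 11481. Read depth is unknown, and a site absent from a list may lie below the caller's threshold. Of the 2097 H3K4me3 genes with H3K27ac in 1 list, 2012 had it in the longer list. Without replicate 2, 3901 genes carried both marks, and without replicate 1, 1961 did. H3K4me3 alone was counted at 5400 and 7111 genes in these settings, and H3K27ac alone at 62 and 31. With the 4016 widest peaks of each list, H3K27ac stood alone at 103 genes.

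Where both marks stood together, they lay on the same start site and H3K4me3 was usually the wider. All 4 lists marked 1 shared start at 1865 of the 1875 genes (99.5%), and peaks of the marks overlapped each other in both replicates at 1862. The H3K4me3 peak was wider in both replicates at 1674 genes (89.3%) and the H3K27ac peak at 88 (4.69%). The median H3K27ac width at the 1875 genes was itself 1962 bp in replicate 1 and 1451 bp in replicate 2. Read depth is unknown, and how far called widths can be compared between marks was not tested. Across the 1875 genes the widths of the marks had a Spearman rho of 0.577 in replicate 1 and 0.398 in replicate 2 (Pearson's r 0.554 and 0.415), where the points share libraries and neighbouring genes can share a peak.

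Around genes with 1 listed start, the marks had different shapes. At the 1185 such genes with both marks, H3K27ac peaks covered 96.5% of the bases in replicate 1 and 90.8% in replicate 2 in the 100-bp bin just after the start, averaged over genes. At 1050 bp downstream, H3K27ac still covered 45.3% and 25.6% of the bases and H3K4me3 93.1% and 90.7%. At 1050 bp upstream, H3K4me3 covered 65.6% and 60.4%, so it extended further into the gene than away from it. At the 3736 genes with H3K4me3 alone, H3K4me3 covered 69.7% and 60.1% at 1050 bp downstream and 33.8% and 28.4% at 1050 bp upstream. The H3K4me3 blocks of these genes were thus shorter on both sides in both replicates.

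**Figure D1:**
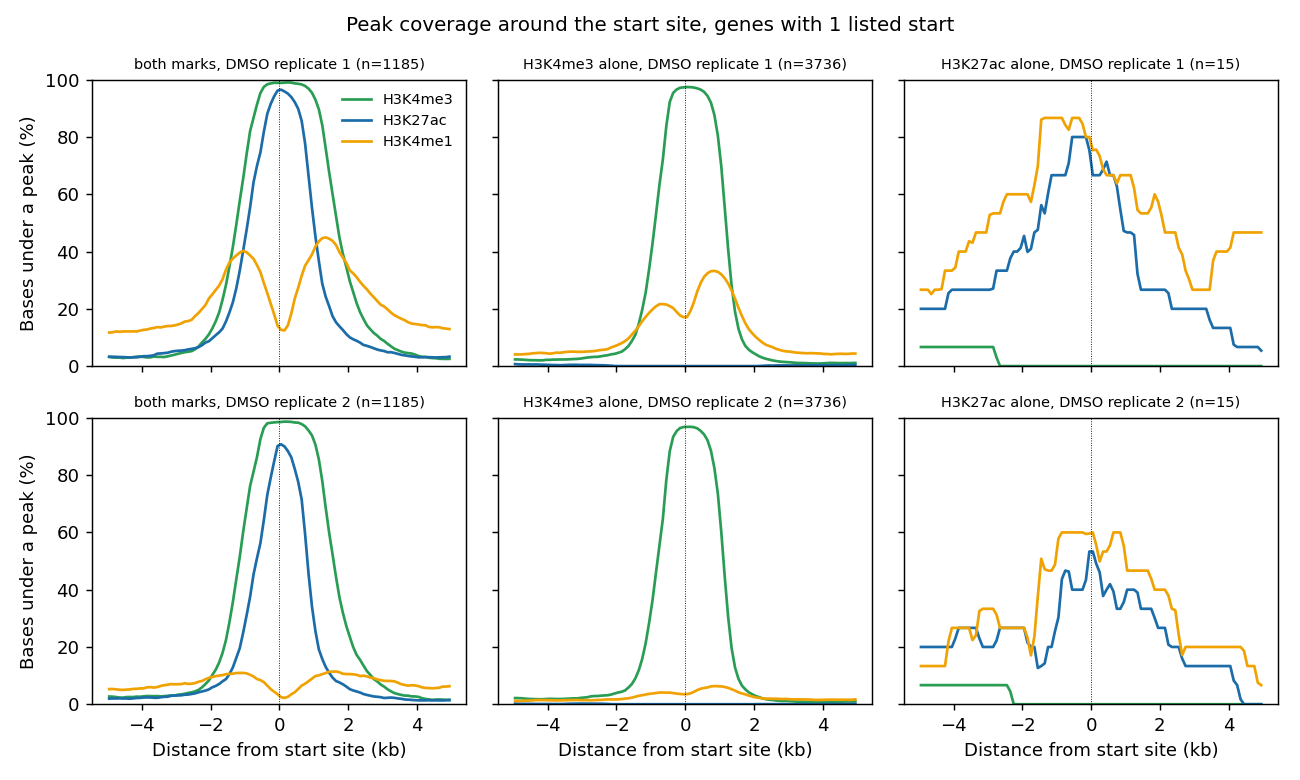
Share of bases under a peak (%, vertical axis) by distance from the start site (kb, horizontal axis, 100-bp bins), for genes with 1 listed start, by class and DMSO replicate; lines are the marks. In the class with both marks, H3K27ac peaks near the start at 96.5% in replicate 1 and 90.8% in replicate 2.

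H3K4me3 reached further at genes that also carried H3K27ac, a measure not used to form the classes. The median bp of the promoter window covered by H3K4me3 was 2917 in replicate 1 and 2758 in replicate 2 at genes with both marks, against 2095 and 1944 at genes with H3K4me3 alone. The log2 ratio of the medians was 0.49 ± 0.02 (SD, n = 2 lists), 1.41-fold. Genes with H3K27ac in 1 list lay between, at 2599 and 2464 bp. By width of the widest peak, which is not limited by the window, the medians were 3017 and 2818 bp against 2095 and 1945 bp, a log2 ratio of 0.53 ± 0.01. The ratio was 0.16 with windows of 1 kb and 0.18 with the 4016 widest peaks of each list, settings that cap the extent or drop narrow peaks by construction.

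**Figure D2:**
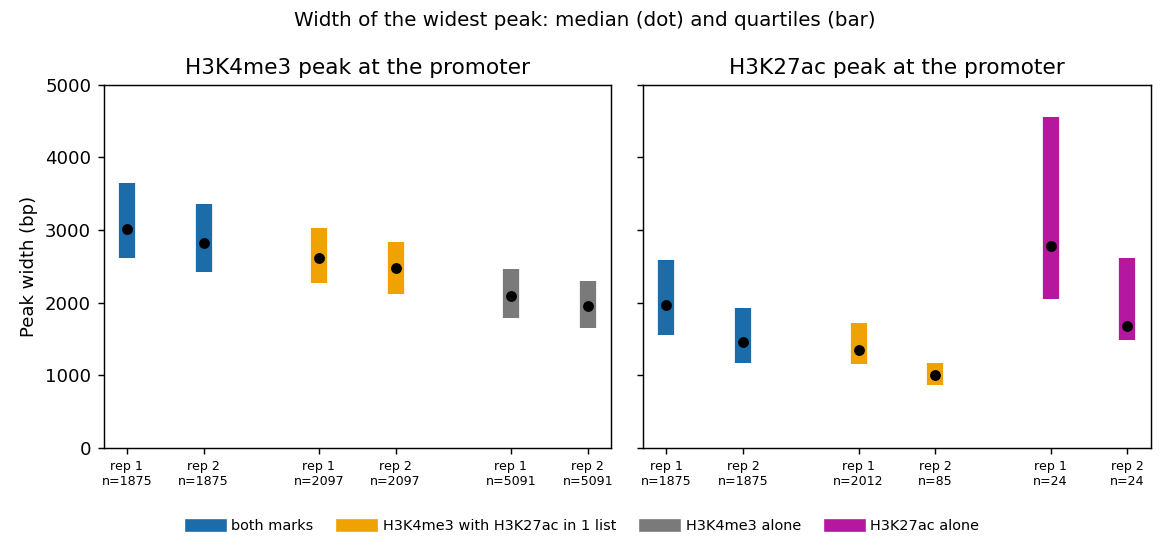
Width in bp (vertical axis) of the widest peak at the promoter for H3K4me3 (left) and H3K27ac (right), by class and DMSO replicate; dots are medians and bars the quartiles. The H3K4me3 medians fall from 3017 and 2818 bp with both marks to 2095 and 1945 bp with H3K4me3 alone.

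The share of genes with H3K27ac rose with each decile of H3K4me3 width. In the narrowest decile, with median widths of 1502 and 1341 bp, 4.64% and 1.104% of genes had H3K27ac in replicates 1 and 2. In the fifth decile the shares were 37.1% and 12.3%. In the widest decile, with medians of 4007 and 3748 bp, they were 84.3% and 62.6%, and 14.2% of the genes there still had H3K27ac in neither list. Wide H3K4me3 without a listed H3K27ac peak was thus present but uncommon.

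**Figure D3:**
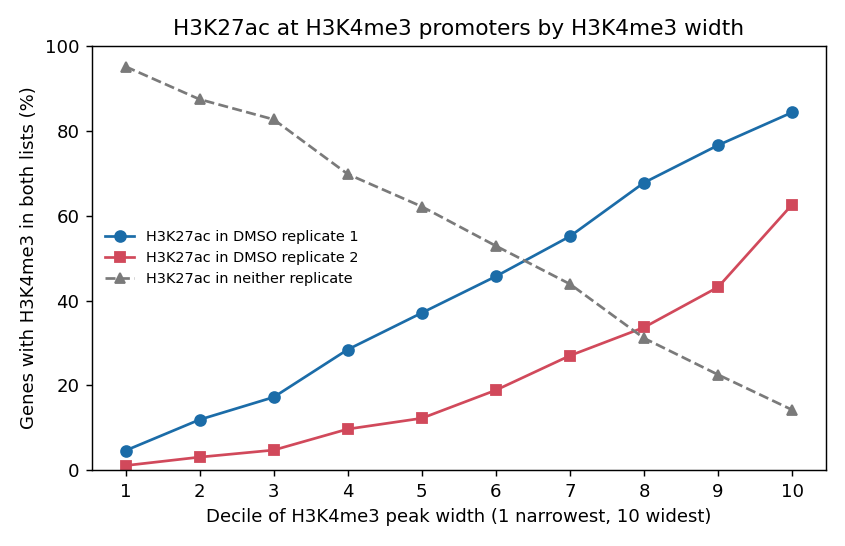
Share of the 9063 genes with H3K4me3 in both lists that had H3K27ac (%, vertical axis) by decile of H3K4me3 peak width (horizontal axis, 1 narrowest); lines are H3K27ac in each replicate and in neither. The replicate lines climb to 84.3% and 62.6% in the widest decile.

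H3K4me1, which the classes did not use, was listed more often at genes with both marks. It stood at 71.3% of them in its first DMSO list and 24.7% in its second, against 47.2% and 11.3% at genes with H3K4me3 alone, a difference of 18.7 ± 7.52 percentage points (SD, n = 2 lists). Its lists held 25058 and 9673 peaks. At the genes with 1 start and both marks, H3K4me1 in the first list covered 12.7% of the bases just after the start and reached its highest share, 45.0%, 1350 bp downstream. H3K4me1 thus flanked the start. Of the 24 genes with H3K27ac alone, 20 had H3K4me1 in both lists.

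The inhibitor libraries, which also took no part in the classes, held H3K27ac at 62.8% and 56.4% of the genes with both marks. They held it at 20.0% and 14.8% of those with H3K27ac in 1 DMSO list, and at 2.16% and 1.47% of those with H3K4me3 alone. The order of the classes was the same in both inhibitor lists. H3K4me3 was listed in the inhibitor libraries at 99.0% and 98.9% of the genes with both marks and at 90.7% and 85.8% of those with H3K4me3 alone. At the 24 genes with H3K27ac alone, neither inhibitor H3K4me3 list had a peak.

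**Figure D4:**
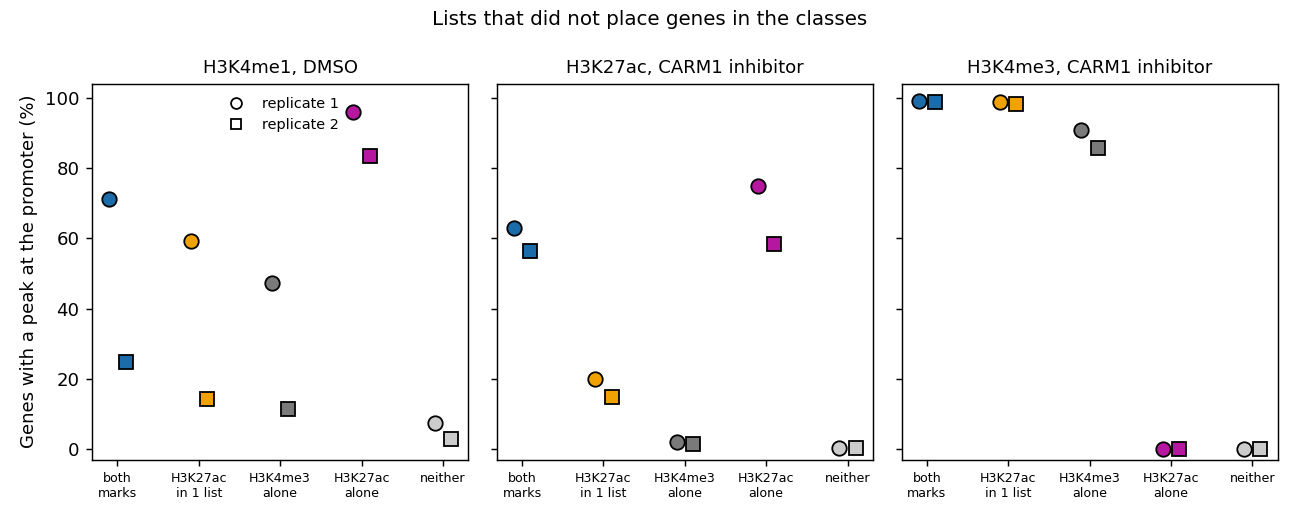
Share of genes with a peak at the promoter (%, vertical axis) in lists that did not form the classes, by class and replicate. H3K27ac in the inhibitor lists stands at 62.8% and 56.4% of genes with both marks and at 2.16% and 1.47% of genes with H3K4me3 alone.

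Promoter sequence separated the classes with H3K4me3 from H3K27ac alone more than from each other. The median observed over expected CpG ratio in the 300 bases around the start was 0.875 with both marks, 0.840 with H3K4me3 alone, 0.320 with H3K27ac alone, 0.376 with neither and 0.762 over all genes. A ratio of at least 0.6 was found at 86.9% of genes with both marks, 86.9% with H3K4me3 alone, and 4 of 24 with H3K27ac alone. Genes with H3K4me3 and H3K27ac in 1 list had a median of 0.878 and 90.0% at 0.6 or more, above both other H3K4me3 classes. The difference of 0.035 between both marks and H3K4me3 alone was 0.0052 with lists of equal length.

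Exact matches of 8 short motifs were counted on both strands of the same windows; none of the 8 holds another within it. TATAAA, the core of the TATA box, was found at 6.13% of genes with both marks, 4.77% with H3K4me3 alone and 9.75% of all genes. CCAAT, bound by NF-Y, was found at 37.8%, 37.9% and 36.4%. GGGCGG, bound by SP factors, was found at 70.1%, 73.5% and 58.3%. CCGGAA, the core bound by ETS factors, was found at 28.2%, 32.2% and 22.7%. GCGCATGC, bound by NRF1, was found at 5.12%, 6.36% and 4.28%. The longest motif, 10 bases bound by YY1, was found at 3.25%, 2.71% and 1.88%. TTTGGCGC, bound by E2F factors, was found at 1.39%, 1.04% and 0.885%. ATTTGCAT, the octamer, was found at 1.81%, 1.24% and 1.72%. GGGCGG and CCGGAA were somewhat more frequent with H3K4me3 alone than with both marks, and more frequent in each of these classes than over all genes. The NRF1 motif differed in the same direction. At genes with H3K4me3 and H3K27ac in 1 list, the ETS core was found at 37.0% and the NRF1 motif at 7.44%. Both shares lay above those of both marks and of H3K4me3 alone. The SP motif, at 72.8%, lay between them. The ETS and NRF1 shares thus did not fall steadily from H3K4me3 alone to both marks. A match is a description of the letters and not a bound site.

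Genes with both marks more often had an opposite start close by than genes with H3K4me3 alone. A divergent start within 1 kb was found at 21.8% of them, 24.9% of those with H3K27ac in 1 list, 15.9% of those with H3K4me3 alone and 12.3% of all genes. Their share of the H3K4me3 genes ran from 14.3% on chromosome 16 to 31.3% on chromosome 21, over the chromosomes analysed, which leave out chromosome 8. Chromosome 19, where 23.8% of H3K4me3 genes are ZNF zinc finger genes, had 17.2%.

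The widest H3K27ac promoters with both marks, ranked by covered bp in the poorer list, included transcriptional regulators. MEF2D, a MADS-box transcription factor, had H3K27ac peaks of 19227 and 17752 bp over H3K4me3 peaks of 3843 and 2123 bp. IRF2BP2, a transcriptional corepressor, had 16204 and 11703 bp over 10393 and 8948 bp. MDM4, an inhibitor of p53, had 11680 and 11102 bp over 4058 and 3349 bp. In these genes H3K27ac was the wider mark, unlike in most of the class, but they were ranked by the extent of H3K27ac, which favours this. RUBCNL, UMODL1, RCSD1, IGLL1 (part of the surrogate light chain of the pre-B-cell receptor), ASXL1 (a chromatin regulator), TIFA and POU2F1 (the octamer factor OCT1) complete the 10. In 24 genes H3K27ac filled the whole window of 4001 bp in both lists, and ties were ordered by peak width.

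The widest H3K4me3 promoters without H3K27ac were of mixed function. ADM, which encodes the peptide adrenomedullin, and SBF2 share 1 peak of 6220 and 6315 bp. ZBTB7B, a transcription factor of T-cell lineage choice, had 6338 and 5407 bp, and H3K4me1 peaks of 16446 and 8751 bp. NR3C2 had 5333 and 5125 bp and HSPD1 had 4100 and 3768 bp. Each lies above the median width of the widest H3K4me3 decile in both lists, which their ranking by covered H3K4me3 favours. ACBD5, NOA1, SMAD6 (an inhibitor of BMP signalling), TLCD1 and SGMS1 (a sphingomyelin synthase) complete the 10.

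The line's B-cell label was checked against marker genes. Of 12 B-cell markers with a listed start, 11 had H3K4me3 in both lists, as did 57.3% of all genes. Both marks stood at 7 of them (63.6% of 11, against 20.7% of all H3K4me3 genes). At the shares of all genes in the same deciles of H3K4me3 width, 4.21 of the 11 would carry both. Without replicate 2, 8 carried both (72.7%, against 41.9% of all H3K4me3 genes). With the 4016 widest peaks of each list, 7 did (87.5%, against 29.4%). With both gene ends, which adds markers without a listed start, 13 carried both marks (72.2%). PAX5 had H3K27ac peaks of 7583 and 6076 bp and H3K4me3 peaks of 15441 and 15026 bp. The other 6 were IKZF1, EBF1, TCF3, SPIB, BLNK and CD79A. CD22, CR2 and POU2F2 had H3K4me3 alone, with peaks between 1366 and 1801 bp, and FCER2 had neither mark. All 11 T and NK cell markers, 1 of them in a stretch without peaks, and all 12 myeloid markers had neither mark, against 40.7% of all genes. Of 4 epithelial and stromal markers, VIM alone was marked, and of 11 neuronal markers 4 had H3K4me3 alone.

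The counts of gene lists below are read against 2 values. The first is the share of all H3K4me3 genes with both marks, 20.7%, which was 41.9% without replicate 2 and 29.4% with the widest peaks in lists of equal length. The second, called the same-width count, is the number a list would have at the shares of all genes in the same deciles of H3K4me3 width. No list was tested, and no list is called different from the rest.

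Germinal centre and plasma cell genes were divided between the classes. Of 17 germinal centre genes with a listed start, 7 had neither mark, as did 40.7% of all genes, and 2 of the 17 lie in stretches without peaks. Of the 10 germinal centre genes with H3K4me3, 7 carried both marks (70.0%, same-width count 4.08), and 4 did with lists of equal length (50%). Among those with both marks was CXCR4, the chemokine receptor of the dark zone, with H3K27ac of 5263 and 3708 bp. BCL6, the repressor that maintains the germinal centre state, had narrow H3K27ac peaks of 1315 and 972 bp over H3K4me3 of 3457 and 3333 bp. MEF2C and S1PR2 had H3K4me3 alone. Of 14 plasma cell genes, 6 carried both marks (42.9%, same-width count 4.88), including IRF4, XBP1 and MZB1, the last with H3K27ac of 9684 and 5834 bp. PRDM1, the master regulator of plasma cells, had H3K4me3 alone, at 1448 and 1224 bp. Of 14 B-cell receptor signalling genes with H3K4me3, 7 carried both (50%, same-width count 4.21). The kinase SYK was among them, with 5122 and 3715 bp of H3K27ac, and MALT1, PRKCB, DAPP1, VAV1 and VAV2 had H3K4me3 alone.

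Genes of inducible pathways lay in each of the classes with H3K4me3. Of 16 NF-kB genes, 7 carried both marks (43.8%, same-width count 5.88), 8 had H3K27ac in 1 list and NFKBIB alone lacked it; the inhibitor gene TNFAIP3 had 2496 and 1263 bp of H3K27ac over 5488 and 4811 bp of H3K4me3. Of 10 interferon response genes with H3K4me3, IRF1 carried both marks (10%, same-width count 1.01), 2 had H3K27ac in 1 list and 7 had none, including STAT2 and ISG15. Of 19 p53 targets, 3 carried both (MDM2, PMAIP1 and BTG2; 15.8%, same-width count 4.94) and 11 had H3K4me3 alone, among them the cell cycle inhibitor CDKN1A with 2949 and 2632 bp. Of 20 immediate early genes, 7 carried both (35.0%, same-width count 9.56), including JUNB and BTG1, and 9 had H3K4me3 alone. FOS (3024 and 2934 bp) and JUN (4025 and 3264 bp) were among those 9, so wide H3K4me3 stood there without listed H3K27ac. Without replicate 2, both marks were counted at 14 NF-kB genes (87.5%), 3 interferon response genes (30.0%), 7 p53 targets (36.8%) and 11 immediate early genes (52.4%). With lists of equal length the p53 targets had 37.5%, above all genes, and with both gene ends 3 interferon response genes carried both (17.6%).

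Proliferation and housekeeping lists also spread over the classes. Of 40 splicing factor genes with H3K4me3, 25 carried both marks (62.5%, same-width count 14.7), and 16 did with lists of equal length (61.5%). HNRNPA2B1, an RNA-binding splicing regulator, had H3K27ac of 5047 and 3328 bp over H3K4me3 of 7405 and 6899 bp. Of 31 cell cycle genes, 13 carried both (41.9%, same-width count 10.3), and CDK6 had H3K4me3 alone in spite of peaks of 5551 and 5395 bp. Of 61 respiratory chain genes, 8 carried both (13.1%, same-width count 11.3) and 31 had H3K4me3 alone. Of 60 ribosomal protein genes, 16 carried both (26.7%, same-width count 18.5) and 24 had H3K27ac in 1 list. Of 43 DNA repair genes, 10 carried both (23.3%, same-width count 9.52) and 20 had H3K4me3 alone. Of 25 proteasome genes, 7 carried both (28.0%, same-width count 4.77) and 9 had H3K4me3 alone. In the main setting the shares of the DNA repair, ribosomal protein and proteasome genes lay not far above the 20.7% of all genes. Of 331 ZNF genes, 40 carried both (12.1%, same-width count 40.2) and 214 had H3K4me3 alone; the count is close to that of genes of like H3K4me3 width.

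The list counts moved with the H3K27ac lists used. Without replicate 2, both marks were counted at 30 respiratory chain genes (48.4%, above the 41.9% of all genes), 40 ribosomal protein genes (65.6%) and 114 ZNF genes (33.9%). In that setting 24 cell cycle genes (77.4%), 23 DNA repair genes (53.5%) and 16 proteasome genes (64.0%) carried both, each share above the 41.9%. With lists of equal length the ribosomal protein genes fell below all genes (6 genes, 16.2%, against 29.4%) and the ZNF genes lay above them (20 genes, 35.1%). The other counts there were 8 cell cycle (34.8%), 4 respiratory chain (22.2%), 5 DNA repair (29.4%) and 4 proteasome genes (44.4%). With unshared windows, 10 ribosomal protein (23.3%) and 3 respiratory chain genes (8.33%) carried both, against 20.2% of all H3K4me3 genes. The side of the all-gene share on which respiratory chain, ribosomal protein and ZNF genes lie thus depends on the lists used.

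**Figure D5:**
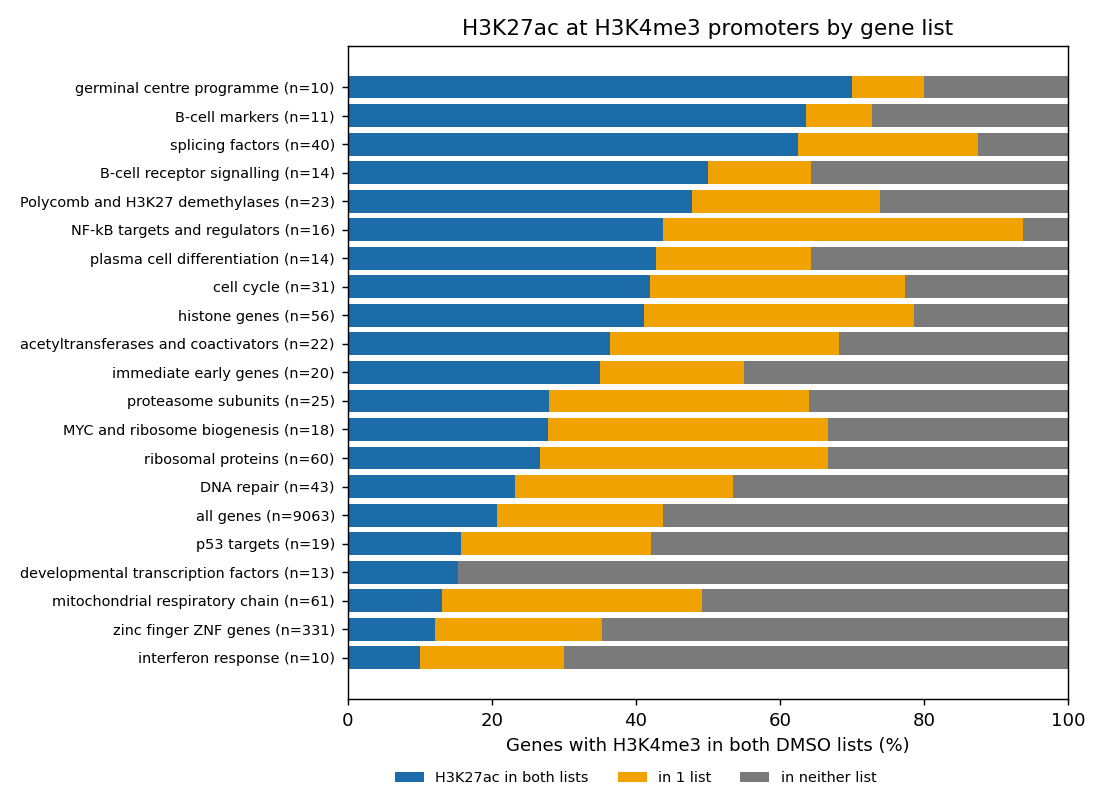
Share of genes with H3K4me3 in both DMSO lists (%, horizontal axis) that had H3K27ac in both lists, in 1 list or in neither, by gene list; n is the number with H3K4me3. Germinal centre genes (70.0%), B-cell markers (63.6%) and splicing factors (62.5%) are among the lists with the both-mark class as their largest. ZNF genes are among those with H3K4me3 alone as theirs.

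Genes for chromatin regulators fell on both sides. CREBBP had H3K27ac of 1660 and 783 bp over H3K4me3 of 3178 and 2847 bp, and EP300 had 2569 and 1627 bp over 4321 and 3673 bp. CARM1, the target of the inhibitor, had H3K4me3 alone, at 1942 and 1798 bp. Of 22 acetyltransferase and coactivator genes with H3K4me3, 8 carried both marks (36.4%, same-width count 7.01) and 7 had H3K4me3 alone. Of 23 Polycomb and H3K27 demethylase genes, 11 carried both (47.8%, same-width count 7.13). EZH2, the H3K27 methyltransferase, was among them with 2641 and 2583 bp of H3K27ac, and KDM6B had H3K4me3 alone at 4217 and 3844 bp. Of 18 MYC and ribosome biogenesis genes, 5 carried both (27.8%, same-width count 6.17). Of 56 histone genes with H3K4me3, 23 carried both (41.1%, same-width count 20.6), and 6 did with unshared windows (40.0%), since many share one. Without replicate 2 these 4 lists had 15 (68.2%), 17 (73.9%), 12 (66.7%) and 44 (77.2%) genes with both marks, against 41.9% of all H3K4me3 genes. With lists of equal length the acetyltransferase list had 3 (25%) and the MYC list 4 (28.6%), both below the 29.4% of all genes, and the Polycomb list 5 (35.7%). GAPDH, a glycolytic enzyme, carried both, with H3K27ac of 3019 and 2385 bp.

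Genes of other lineages were mostly unmarked. For comparison, 40.7% of all genes had neither mark. Of 58 developmental transcription factors, 45 had neither mark and 11 had H3K4me3 alone, and 5 of the 58 lie in stretches without peaks. SOX2 and HOXC4 carried both (15.4% of 13 with H3K4me3, same-width count 1.87), SOX2 with H3K27ac of 1921 and 928 bp over H3K4me3 of 5490 and 5441 bp. Of 314 olfactory receptor genes, 309 had neither mark, as did all 114 keratin and keratin-associated genes. Of the olfactory receptor genes, 20 lie in stretches without peaks.

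The 24 genes with H3K27ac alone were ADAM29, ARSG, FAM177B, FCMR, FCRL2, HMHB1, INSC, LAMP5, LCE1C, LCK, LCN6, LOC124903372, LRRC14B, MAP1LC3B2, MS4A7, MYLK3, PVRIG, RAMACL, RASSF2, SH3TC1, TRPM2, WDR86, ZMYND8 and ZPBP2. FCMR had H3K27ac of 5002 and 4836 bp and H3K4me1 of 5992 and 6019 bp, and its nearest H3K4me3 peak lay 126345 bp away. LCK, a kinase of lymphocyte antigen receptor signalling, had H3K27ac of 2048 and 1449 bp and H3K4me1 of 6250 and 3260 bp. FCRL2, an Fc receptor-like gene of B cells, had H3K27ac of 7600 and 3361 bp. H3K4me1 was wider than H3K27ac at these 3, which were picked from the 24. At HMHB1, LAMP5, LCE1C, MAP1LC3B2 and ZPBP2 it was narrower than H3K27ac or not listed, in both replicates. LAMP5, for one, had H3K4me1 of 2709 and 1509 bp against H3K27ac of 6196 and 5293 bp. H3K27ac covered the start itself in both lists at 13 of the 24 genes and in neither at 6.

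The nearest H3K4me3 peak lay at a median of 26162.5 bp from the start of these 24 genes, from 2334 bp at ZPBP2 to 519880 bp at LAMP5. ARSG, RASSF2 and WDR86 had H3K4me3 elsewhere in the gene in both lists, and 21 had none in either. H3K27ac was present in both inhibitor lists at 14 of the 24. No window of another gene with a listed start overlapped theirs, and genes without a listed start were not covered. With both ends of every protein-coding gene in place of listed starts, a setting added after the data were seen, 55 genes had H3K27ac alone, of which 19 were among the 24.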

How the data were processed

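Peak lists of Toledo cells were analysed, 1 per library. The submitters' processing notes name MACS 1.4.2, Bowtie 1.1.2 and the build hg38; how the inputs entered is not given in the sources used here, nor are the threshold and the read filters. Each list the authors deposited holds chromosome, start and end, with no score, so depth is unknown and no interval was computed.

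Start sites came from the RefSeq promoter table of GRCh38.p14; 4159 genes without one, MYC and CD79B among them, entered only the alternative with both gene ends. A gene with several starts counted once. Covered bp is the largest over its windows. Widths of peaks, deciles of width, motifs and divergent starts were chosen after the data were seen. The permutation test planned for the shares cannot go below p = 0.333 and nothing rests on it. Members and lists were chosen with earlier results of these data known. Named genes are the 10 per class with the highest percentile of covered bp in the poorer list (ties by peak width), list members, and 10 fixed genes. The 24 H3K27ac-alone genes are named in full, outside that rule. Class assignment was tested on simulated data. Python 3.11.15, numpy 2.4.6, pandas 2.3.3 and scipy 1.17.1 were used. Alternatives were other windows, overlap, shared windows, peak-free stretches, equal list lengths, each replicate left out and a replicate block, plus start choice and peak width, added later.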

Additional observations from a re-analysis of the deposited data

How the results depend on the processing

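The differences between both marks and H3K4me3 alone in covered H3K4me3, H3K4me1 and CpG ratio kept their direction under every alternative that gave a value. With the 4016 widest peaks of each list, both marks stood at 1015 genes, H3K4me3 alone at 1617 (930 of them among the 5091) and H3K27ac alone at 103; H3K4me3 was found at 87.9% of H3K27ac genes, the log2 ratio of covered H3K4me3 was 0.18 and the CpG difference 0.0052. The share of H3K27ac genes with H3K4me3 was 98.8% with 1 kb windows, 98.1% with 5 kb windows, 98.1% with unshared windows and 97.3% with both gene ends. The log2 ratio of covered H3K4me3 was 0.16, 0.54, 0.52 and 0.47 in these settings, and 0.53 by peak width. Both gene ends gave 55 genes with H3K27ac alone. Leaving out a replicate gave 1961 to 3901 genes with both marks, 31 to 62 with H3K27ac alone, H3K4me3 at 98.4% to 98.4% of H3K27ac genes and a log2 ratio of 0.39 to 0.41. With the replicate block, each H3K27ac list set against the H3K4me3 list of the same number, these were 98.4% and 0.40, and the classes are the same by construction; the labels do not say what the number pairs. Of the 38 genes named by rank or fixed by name, 33 kept their class with lists of equal length, and MEF2D, CARM1, CREBBP, BCL6 and PRDM1 did not. Of the 38, 35 kept it with the 5'-most start (not MYLK3, SH3TC1 and PRDM1) and 35 with both gene ends (not MYLK3, RASSF2 and SH3TC1). Unknown read depth limits every absence: H3K4me3 alone means that no H3K27ac peak was listed.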

Other observations

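Away from the windows of listed starts the marks parted. Of the H3K27ac peaks, 45.1% and 45.2% lay at a start window in replicates 1 and 2, and of these 95.8% and 96.2% overlapped H3K4me3 in both lists. Of the H3K27ac peaks elsewhere, 23.0% and 24.0% did. Peaks at the 4159 genes without a listed start, with all of chromosome 8, count as elsewhere. That group thus mixes promoters without a listed start with distal sites. H3K27ac peaks without H3K4me3 had median widths of 2014.5 and 1741 bp, against 1623 and 1434 bp with it. H3K4me3 peaks were the reverse, at 1915.5 and 1836 bp without H3K27ac and 2916.5 and 2760 bp with it.

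Genes with separate starts sometimes held different classes. Of 1373 genes with starts at least 10 kb apart, 38 had both marks at 1 start and H3K4me3 alone at another, among them PIK3CD, a lymphocyte lipid kinase, and PHC2, a Polycomb subunit. Both marks at 1 start and neither at another were found at 115. CYTH1, IRAG2, SEPTIN9 and STK24 had both marks at 1 start and H3K27ac alone at another. These groups share 6 genes and hold 150 in all. The genes named were chosen after their values were seen.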
